A study of Mus musculus with 12 samples.

Results

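The 10 genes described here belong to the simple epithelium that lines the large bowel, and their messenger RNA was followed in mice with and without colitis and with and without berberine (BBR), a plant alkaloid. They are the keratins Krt7, Krt8, Krt18, Krt19, Krt20 and Krt23, the adhesion molecule Epcam, and the brush border genes Vil1, Cdhr2 and Cdhr5. The members were chosen by symbol, and all 10 were found among the 17734 genes of the expression table. RNA of the distal large bowel of 12 male C57BL/6 mice was sequenced, with 3 mice in each of 4 groups. The labels call the tissue colorectum, and the study's methods describe the rectum. Normal mice drank water, and colitis mice drank dextran sulfate sodium (DSS), a sulfated polysaccharide that injures the bowel lining, for 7 days. Normal mice receiving BBR, called BBR-treated normal mice here, had no DSS, and colitis mice receiving BBR, called BBR-treated colitis mice, had both agents. BBR was given by gavage, for 6 days by the protocol text of the labels, although the group labels read 7 days. No mouse carried a transgene or a deletion by the labels, and each sample was bulk tissue that held muscle, stroma and immune cells beside the epithelium.

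Keratins of simple epithelia are intermediate filament proteins, and each filament pairs a type II keratin, here Krt7 or Krt8, with a type I keratin, here Krt18, Krt19, Krt20 or Krt23. Krt8, Krt18 and Krt19 are the main filament proteins of intestinal cells, and Krt20 marks the mature cells near the surface. Vil1 encodes villin, which bundles actin in the core of microvilli, Cdhr2 and Cdhr5 encode the protocadherins whose heterophilic contacts link the tips of neighbouring microvilli, and Epcam encodes a membrane protein of nearly all simple epithelial cells. In bulk tissue, fewer cells of a type and less of an RNA per cell cannot be told apart.

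The promoters of 4 members are shown because these genes had the largest log2 fold changes in colitis or share the letters CATAAA shortly before their start. The 250 bases before the RefSeq start of 9 members were available in the GRCm38.p6 build, which is not the mm9 build named in the submitters' processing notes, so they are used for letters and for these positions only. Capitals mark CATAAA, the reverse strand of TTTATG, in Krt23, Cdhr5 and Epcam, and TTTATT and TATAAA in Krt20, and each sequence runs 5′ to 3′ on the gene's own strand. The region of Krt23 is chr11:99493121-99493370 on the minus strand, that of Cdhr5 is chr7:141276787-141277036 on the minus strand, that of Epcam is chr17:87635729-87635978 on the plus strand, and that of Krt20 is chr11:99438154-99438403 on the minus strand.
Krt23: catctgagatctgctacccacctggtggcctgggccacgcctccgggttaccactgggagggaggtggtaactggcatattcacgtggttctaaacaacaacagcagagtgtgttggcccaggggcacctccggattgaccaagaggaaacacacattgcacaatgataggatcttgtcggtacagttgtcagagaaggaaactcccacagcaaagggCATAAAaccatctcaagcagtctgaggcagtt
Cdhr5: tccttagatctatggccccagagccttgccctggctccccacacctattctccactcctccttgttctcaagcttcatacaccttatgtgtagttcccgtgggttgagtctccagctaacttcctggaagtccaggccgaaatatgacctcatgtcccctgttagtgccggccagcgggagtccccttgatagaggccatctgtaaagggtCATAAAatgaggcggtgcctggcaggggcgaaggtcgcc
Epcam: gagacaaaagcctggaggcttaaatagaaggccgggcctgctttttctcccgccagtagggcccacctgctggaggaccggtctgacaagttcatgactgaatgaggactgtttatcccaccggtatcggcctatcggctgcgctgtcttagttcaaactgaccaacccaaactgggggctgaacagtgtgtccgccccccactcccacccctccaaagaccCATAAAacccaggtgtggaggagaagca
Krt20: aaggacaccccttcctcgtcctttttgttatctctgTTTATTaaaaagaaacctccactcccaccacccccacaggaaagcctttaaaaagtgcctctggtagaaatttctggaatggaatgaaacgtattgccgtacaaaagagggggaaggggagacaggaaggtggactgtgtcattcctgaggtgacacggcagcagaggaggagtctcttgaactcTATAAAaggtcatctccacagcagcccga
TTTATG and TTTATT, searched on both strands as letters that caudal homeobox (CDX) factors bind, were found in 5 of the 9 member promoters, those of Krt7, Krt20, Krt23, Epcam and Cdhr5, and in 25.5% of 32851 RefSeq mouse promoters of the same length. The match lay 32 to 27 bases before the start in Krt23, 39 to 34 in Cdhr5 and 28 to 23 in Epcam, and 214 to 209 in Krt20, and in Krt7, whose promoter is not shown, it lay 8 to 3 bases before the start. The gene span of Cdhr5, chr7:141269080-141276795, covers the last bases of its region, and distances in Cdhr5 are counted from the end of the region shown. TATAAA, searched on both strands, was found in Krt20, 29 to 24 bases before its start, and in 12.4% of all promoters, and it does not overlap the TTTATT of that promoter. The letters CAAAGTCCA and CAAAGTTCA, searched on both strands for HNF4, were in 0 of the 9 and in 0.715% of all promoters. Where TATAAA sits in Krt20, the 3 other genes have CATAAA at a like distance from the start. A match is a description of the letters and not of a bound site.

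By position, Krt20, Krt23 and Krt19 lie on chromosome 11 within the type I keratin cluster, and Krt7, Krt8 and Krt18 lie on chromosome 15 within the type II cluster, where Krt18 is a type I gene beside Krt8. Krt23 spans chr11:99477973-99493120 and its neighbour Krt20 spans chr11:99428385-99438153 in GRCm38.p6. Vil1, Cdhr5, Cdhr2 and Epcam lie on chromosomes 1, 7, 13 and 17.

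Values were read as fragments per unit of transcript length and of sequenced fragments (FPKM), a level per length. No source names the unit, which was judged from the table's numbers, and TPM is possible. The 4 mice numbered 4, 1 in each group, stood apart with column totals of 482194 to 504337 FPKM and 872 to 1086 genes at 0, against 696286 to 765876 and 1332 to 1926 in the 8 mice numbered 1 to 3. For the members' main comparisons, values within the mice numbered 1 to 3 are given as well. The labels do not say what the number stands for. The table holds no read counts, and from the steps between low values 1 read was worth about 51 to 83 FPKM times bases of transcript, an estimate that placed 40.2% to 64.0% of low values within 0.15 of a whole read. The worth was chosen in each mouse to fit these same values best, and some values fall that near by coincidence, so the share is no check of the estimate. On that estimate Krt23, the lowest member, rested on about 32 to 310 reads per mouse and Krt8 on about 49253 to 123442, so counting error was small for every member but Krt23. The epithelium was present in every library, since 16 general epithelial genes that are no members summed to 2596 to 3664 FPKM in all 12 mice. Krt5 was at most 0.12 FPKM, Krt4 at most 0.03 and Trp63 at most 0.18 in any mouse, and Krt14 ran from 0.16 to 1.96 FPKM, all of them markers of the stratified squamous epithelium of the anal canal.

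Krt8 and Krt19 were the most abundant members in all 12 mice. In normal mice numbered 1, 3 and 4, Krt8, the chief type II keratin of the gut, was at 4182, 4820 and 3271 FPKM. In colitis mice numbered 1, 2 and 4 it was at 4520, 2933 and 2877 FPKM, in BBR-treated normal mice numbered 1, 3 and 4 at 4319, 3402 and 2645 FPKM, and in BBR-treated colitis mice numbered 2, 3 and 4 at 2012, 3161 and 3492 FPKM. The mice of each group are named in this order from here on. The 4 groups overlapped, and the colitis mouse numbered 1 was as high as the normal mice. Krt19, a type I keratin, ranked the mice in nearly the same order, with 3937, 4461 and 3224 FPKM in normal mice and 4366, 2663 and 3230 FPKM in colitis mice. Without colitis, BBR-treated mice had 4400, 3629 and 2477 FPKM of Krt19, and with colitis they had 1811, 3072 and 3682 FPKM. The ratio of Krt8 to Krt19 ran only from 0.891 to 1.11 over the 12 mice, although each gene alone varied over a far wider range.

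Krt18, the type I partner usually named with Krt8, averaged 504 ± 154 FPKM without DSS or BBR and 384 ± 226 FPKM with DSS alone (SD, n = 3). With BBR alone it averaged 396 ± 154 FPKM, and with both agents 371 ± 117 FPKM (SD, n = 3). It did not keep pace with Krt8, since the ratio of Krt8 to Krt18 ran from 4.56 to 15.7, with both extremes among the colitis mice. Krt7, a type II keratin better known from ducts and bladder, was at 82.2, 132 and 63.7 FPKM in normal mice and at 72.1, 163 and 68.2 FPKM in colitis mice. With BBR it was at 107, 77.5 and 33.5 FPKM in normal mice and at 54.1, 85.2 and 70.4 FPKM in colitis mice. The ratio of Krt18 to Krt7 was 5.12 to 5.90 in normal mice, 3.25 to 4.0 in colitis mice and 4.84 to 5.80 in BBR-treated colitis mice. Colitis mice lay below both of these groups in that ratio, but BBR-treated normal mice spanned 3.90 to 9.29 and overlapped each of them. The pair was picked after its values were seen, so no test is given. Reads of Krt8, Krt18 and Krt19 can also match processed pseudogenes or related keratins, and their levels depend on how RSEM shared such reads.

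Krt20 was at 555, 792 and 566 FPKM in normal mice and at 1105, 1247 and 715 FPKM in colitis mice. It was at 655, 379 and 480 FPKM in BBR-treated normal mice and at 625, 1363 and 648 FPKM in BBR-treated colitis mice. The lowest colitis mouse was below the highest normal mouse, so the groups overlapped, and BBR-treated colitis mice held both low and high values. Ratios of Krt20 to other members were examined after its levels were seen, so they are a description. The ratio of Krt20 to Epcam was 0.596 to 0.686 in normal mice and 0.803 to 1.07 in colitis mice, which did not overlap, and it was 0.417 to 0.609 in BBR-treated normal mice and 0.617 to 1.14 in BBR-treated colitis mice. The ratio of Krt20 to Krt19 was 0.141 to 0.177 in normal mice and 0.221 to 0.468 in colitis mice, but with BBR the groups overlapped, at 0.105 to 0.194 and 0.176 to 0.444.

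Krt23, a type I keratin known as a stress-induced keratin of the liver, was the least abundant member and the one that differed most with colitis. It was at 5.44, 3.23 and 2.44 FPKM in normal mice and at 15.35, 14.95 and 6.34 FPKM in colitis mice. It was at 1.73, 2.37 and 1.67 FPKM in BBR-treated normal mice and at 13.41, 5.60 and 6.57 FPKM in BBR-treated colitis mice. Every mouse given DSS was above every mouse not given it, and every BBR-treated normal mouse was below every normal mouse, if only by 2.37 against 2.44 FPKM at the nearest pair. Within the colitis groups the values overlapped, and the mouse numbered 4 was the lowest colitis mouse without BBR but not the lowest with it.

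Epcam was one of the steadier members, with 986 ± 148 FPKM in normal mice and 1069 ± 156 FPKM after DSS, and with 925 ± 145 FPKM under BBR alone and 997 ± 211 FPKM under both agents (SD, n = 3). Vil1 had 316 ± 54.5, 317 ± 60.6, 286 ± 44.7 and 329 ± 43.7 FPKM in the same groups (SD, n = 3). All 12 mice lay between 237 and 387 FPKM of Vil1. The villin gene thus varied less between mice than Krt8, Krt20 or Krt23 did.

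Cdhr2 was at 230, 231 and 185 FPKM in normal mice and at 274.5, 307 and 145 FPKM in colitis mice. With BBR it was at 211, 184 and 184 FPKM in normal mice and at 417, 246 and 180 FPKM in colitis mice. Cdhr5, its binding partner across neighbouring microvilli, was at 383, 414 and 460 FPKM in normal mice and at 634, 618 and 418 FPKM in colitis mice. With BBR it was at 402, 409 and 413 FPKM in normal mice and at 777, 549 and 481 FPKM in colitis mice. Of the colitis mice, those numbered 1 and 2 were above all normal mice in both protocadherins, and the mouse numbered 4 was below the normal mouse of that number in both. The ratio of Cdhr5 to Cdhr2 ran from 1.67 to 2.89 over all mice.

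**Figure D1:**
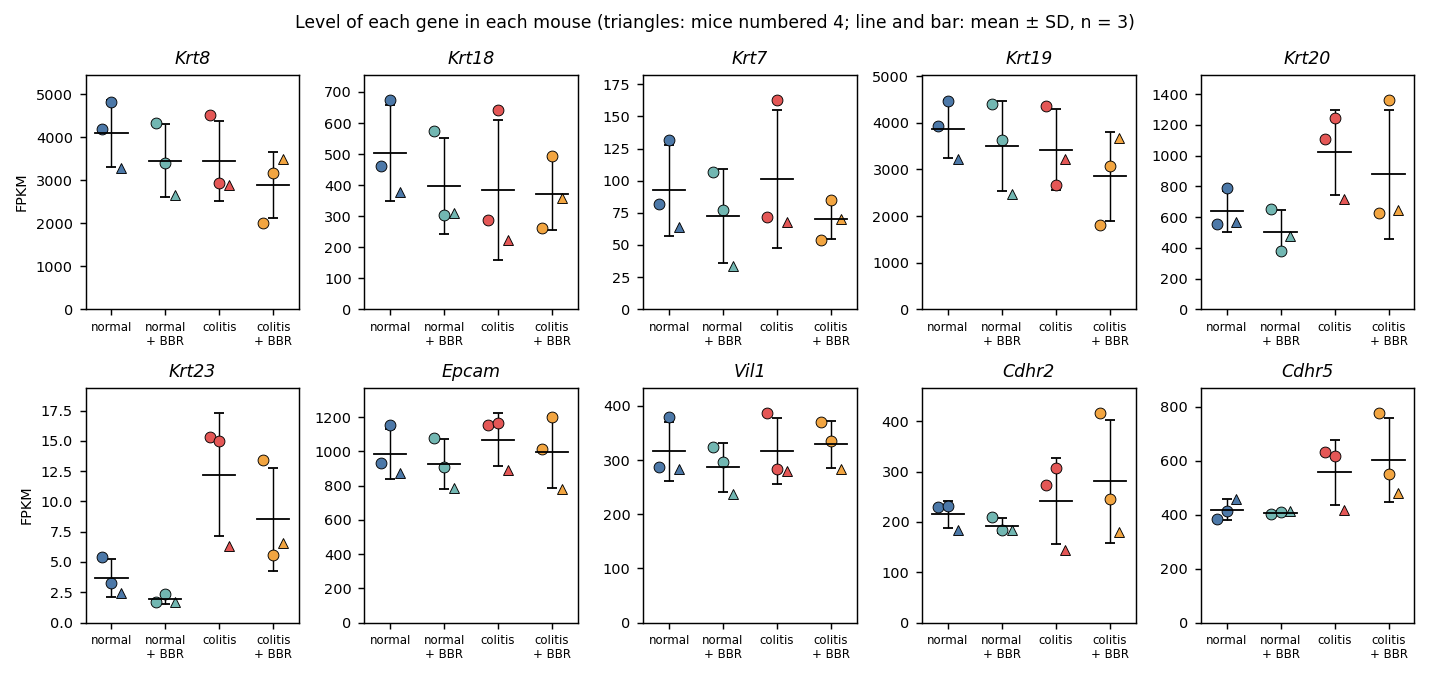
Level of each of the 10 genes (FPKM, linear axes starting at 0) in every mouse of the 4 groups, with the group mean and SD (n = 3) as line and bar and the mice numbered 4 as triangles. Krt23 is at 6.34 to 15.35 FPKM in colitis mice and 2.44 to 5.44 FPKM in normal mice, while Vil1 and Epcam overlap in all groups.

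Colitis mice were first compared with normal mice, to ask whether the injury changed these transcripts. Krt23 was 3.17-fold higher in colitis mice (log2 fold change 1.67, SE 0.43, 95% confidence interval 0.72 to 2.61, on the log2(FPKM + 0.1) scale). It had an unadjusted P of 0.00242 and a Benjamini-Hochberg adjusted p of 0.0770 in limma, over the limit of 0.05, so 0 of the 10 members passed, where 1.08% of the 15315 tested genes did. Krt23 was also the 1 member within the study's own limit, an unadjusted P of 0.05, and the 1 member whose groups did not overlap. Over all genes 5.56% were higher at that P and 7.1% were higher without overlap, so 1 of 10 members is near the background. The exact permutation test of 3 mice against 3 gave p = 0.1 for Krt23, the smallest value it can give.

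Krt20 had a log2 fold change of 0.66 (SE 0.39, 95% confidence interval −0.18 to 1.5, limma adjusted p = 0.319) and Cdhr5 one of 0.39 (SE 0.27, −0.20 to 0.98, adjusted p = 0.390). For Vil1 it was −6e-04 with an interval of −0.53 to 0.52, and for Epcam 0.12 with an interval of −0.56 to 0.80. The interval of Vil1 was the narrowest of the 10, and those of Krt7, Krt8, Krt18 and Krt19 were wider. These 4 keratins had log2 fold changes of 0.07, −0.26, −0.50 and −0.20, the last 3 of them below 0, and Cdhr2 had 0.11. Counted together, 6 members were above 0 and 4 below, where 26.2% of all genes were above 0. The members' median was 0.09 against −0.32 over all tested genes. This shift of all genes depended on the scaling, being −0.05 after quantile normalization and 0.02 when every mouse was centred on its own median. The members' median was then 0.08 and 0.42, and Krt8, Krt19 and Vil1 moved to above 0 under centring.

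Within the mice numbered 1 to 3 the difference between colitis and normal mice was 1.83 in log2 for Krt23 (limma, unadjusted P = 0.00483), 0.82 for Krt20 (unadjusted P = 0.103) and 0.65 for Cdhr5 (unadjusted P = 0.0211). Between the single colitis mouse and the single normal mouse numbered 4 it was 1.34, 0.34 and −0.14. Krt23 was above 0 in both subsets and Cdhr5 below 0 in the single pair, which has no replicate check. With a block for the mice numbered 4 in the fit, the adjusted p of Krt23 was 0.0235 at the same fold change, without the colitis mouse numbered 4 it was 0.0422, and without all 4 mice numbered 4 it was 0.0582, so the call on Krt23 depended on how these mice were handled.

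**Figure D2:**
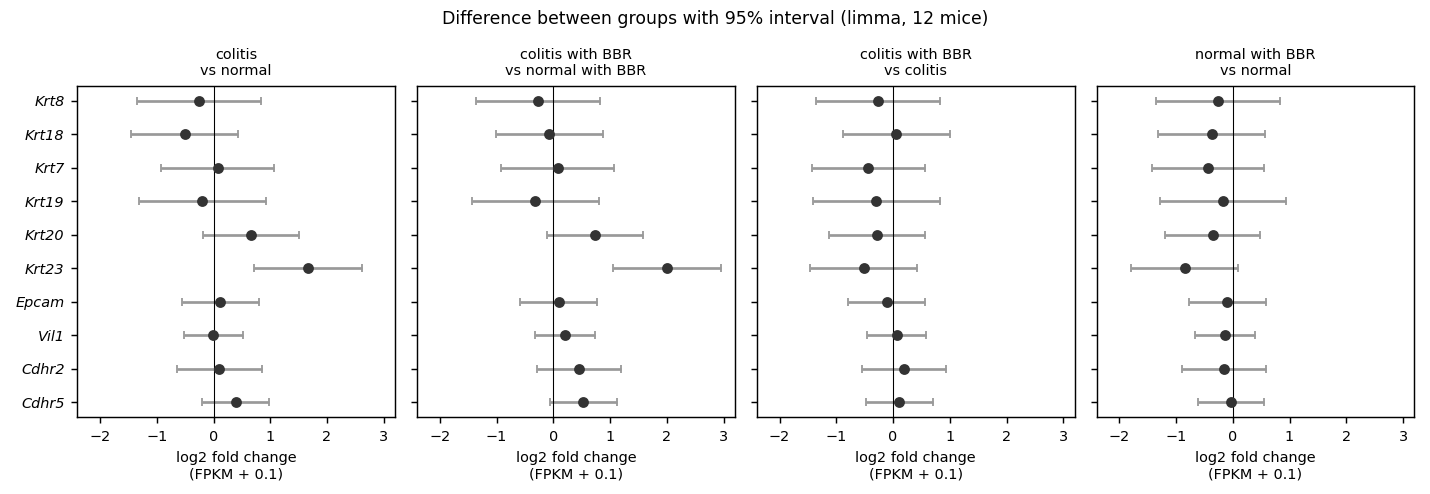
Log2 fold change of each of the 10 genes in 4 comparisons, on the log2(FPKM + 0.1) scale, with bars for the 95% confidence interval from limma. Krt23 stands at 1.67 and 2.0 in both colitis comparisons with intervals above 0, and all other intervals include 0.

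Smooth muscle and immune transcripts also differed in level between colitis and normal mice. All 12 smooth muscle genes were lower after DSS (median −2.91 in log2), where 26.2% of all genes were above 0. Of the 12, 10 were within the unadjusted limit, where 15.9% of all genes were lower, and 0 passed after adjustment. One of them, Myh11, passed in 2 of 17 alternatives (lowest limma adjusted p = 0.0235). The summed level of the 12 genes ran from 1727 to 3342 FPKM in normal mice, from 91.8 to 732 FPKM after DSS, from 2434 to 5312 FPKM in BBR-treated normal mice and was 527, 507 and 3693 FPKM in BBR-treated colitis mice. The last of these, the mouse numbered 4, was thus at the level of mice without DSS, and it also had the lowest immune sum of all 12 mice at 96.3 FPKM and the neutrophil gene S100a8 at 0.31 FPKM, against 118 and 148 FPKM in the other two. Of 13 immune genes 11 were higher in colitis mice, where 26.2% of all genes were. Within the unadjusted limit 7 of the 13 were higher, against 5.56% of all genes, and 1 passed after adjustment, against 1.08%. The summed immune levels were 196 to 1061 FPKM against 101 to 149 FPKM in normal mice, and with BBR 96.3 to 354 FPKM against 118 to 188 FPKM. The 17 squamous genes found in the table summed to 44.7 to 448 FPKM in colitis mice and 16 to 69.3 FPKM in normal mice, and of the 12 that could be tested 6 were above 0 and 6 below. At an unadjusted P of 0.05, 3 of the 12 were higher and 1 lower, against 5.56% and 15.9% of all genes, with 0 after adjustment. Most of the sum in colitis mice was Sprr1a, a cornified envelope gene, at 90.26, 435.69 and 39.17 FPKM against 12.86, 62.98 and 7.3 FPKM in normal mice (limma adjusted p = 0.296). Krt13 was at 2.4, 5.18 and 0.66 FPKM against 0.33, 1.21 and 0.23 FPKM, and Krt6b was at 0.76, 0.97 and 0.48 FPKM against 0, 0.13 and 0 FPKM, while Krt17 was lower, at 0, 0.5 and 0.17 FPKM against 3.44, 1.48 and 3.0 FPKM (log2 fold change −3.35, limma adjusted p = 0.116). Krt17 passed the adjusted limit in 2 of 17 alternatives (lowest adjusted p = 0.0399), and its fold change was −1.55 with a pseudocount of 1. Krt5, Krt4 and Trp63 stayed at the low levels given above. The part of these shifts in the members' values was not tested. Medians were −0.67 for 10 fibroblast genes, −1.14 for 6 endothelial genes, −0.84 for 8 genes of enteric neurons and glia and −0.46 for 4 mesothelial genes, against 1.2 for the immune and 0.50 for the 12 squamous genes that could be tested.

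After the mean of the 16 general epithelial genes was subtracted in each mouse, Krt23 was 1.83 higher in log2 in colitis mice than in normal mice (SE 0.47, limma unadjusted P = 0.00216, adjusted p = 0.0971). Relative to these genes Krt20 was at 0.82 (unadjusted P = 0.0894) and Cdhr5 at 0.55 (unadjusted P = 0.136), and 1 of 10 members had an unadjusted P of at most 0.05 in the direction of a rise, where 6.69% of all genes did. With the mice numbered 1 to 3 alone, these values were 2.15 for Krt23 (unadjusted P = 0.00196), 1.15 for Krt20 (unadjusted P = 0.0420) and 0.98 for Cdhr5 (unadjusted P = 0.00616), and no adjusted p was below 0.05. The reference itself had a median log2 fold change of −0.27, with 11 of 16 genes lower and 0 past either limit. Krt23 was therefore as high relative to other epithelial RNA as on the FPKM scale.

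BBR-treated colitis mice were next compared with BBR-treated normal mice, a comparison that shares no mouse with the first. Krt23 was higher (log2 fold change 2.0, SE 0.43, 95% confidence interval 1.06 to 2.95, unadjusted P = 6.27e-04, limma adjusted p = 0.152). Krt20 was at 0.74 (SE 0.39, adjusted p = 0.287), Cdhr5 at 0.53 (SE 0.27, adjusted p = 0.277), Cdhr2 at 0.46 (SE 0.34, adjusted p = 0.409) and Vil1 at 0.20 (SE 0.24, adjusted p = 0.597). Again 0 members passed after adjustment, where 0.0392% of all genes did, and 1 was higher at an unadjusted P within 0.05, against 2.37% of all genes. The groups did not overlap for Krt23 and Cdhr5, both higher with colitis, against 2.26% of all genes. Krt23, Krt20 and Cdhr5 were the top 3 members by fold change in each of the 2 comparisons. In all, 7 members were above 0 and 3, the keratins Krt8, Krt18 and Krt19, were below, and the median was 0.15 against −0.40 over all genes. Of all genes, 19.9% were above 0. The median of all genes was −0.026 after quantile normalization and 0.056 after centring on the median, and the members' median ran from 0.03 to 0.60 over the alternatives run.

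In the mice numbered 1 to 3 alone, the difference with BBR on both sides was 2.05 for Krt23 (unadjusted P = 0.00268), 0.70 for Cdhr2 (unadjusted P = 0.0326) and 0.69 for Cdhr5 (unadjusted P = 0.0168). In the single pair numbered 4 it was 1.91, −0.03 and 0.22. The adjusted p of Krt23 was 0.0362 without the 4 mice numbered 4, 0.0426 with a block for them and 0.0275 without the BBR-treated colitis mouse numbered 4. These were the 3 of 17 alternatives below the limit, and in the others the adjusted p of Krt23 reached 0.442. Relative to the 16 epithelial genes Krt23 was at 2.09 (SE 0.47, unadjusted P = 8.04e-04, adjusted p = 0.212).

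The comparison of BBR-treated colitis mice with colitis mice asks whether BBR altered these transcripts in injured bowel. None of the 10 members had an adjusted p below 0.05 or an unadjusted P of at most 0.05 in limma, where 0% and 6.39% of all genes did. Krt23 was lowest, at −0.51 in log2 (SE 0.43, 95% confidence interval −1.46 to 0.43), followed by Krt7 at −0.43 (SE 0.45, −1.42 to 0.56), Krt19 at −0.29 (SE 0.51, −1.41 to 0.82) and Krt20 at −0.28 (SE 0.39, −1.12 to 0.56). The highest was Cdhr2 at 0.20 (SE 0.34). For Vil1 and Cdhr5, the intervals were −0.46 to 0.59 and −0.48 to 0.70, whereas for Krt8, Krt19, Krt7, Krt20 and Krt23 the lower bounds lay between −1.46 and −1.12, so that sizeable falls of these keratins are not excluded at 3 mice per group. The median of the members was −0.19 against −0.09 over all genes. The mice numbered 4 did not share these signs for every keratin. Within the mice numbered 1 to 3 Krt8 was at −0.53, Krt19 at −0.53, Krt18 at −0.26, Krt7 at −0.67 and Krt23 at −0.80, with unadjusted P from 0.119 to 0.633 in limma. In the single pair of mice numbered 4, which has no replicate check, these 5 keratins were at 0.28, 0.19, 0.69, 0.046 and 0.051, and Krt20 was below 0 in both subsets. Without the colitis mouse numbered 4, Krt23 was at −0.93 with an unadjusted P of 0.0474 and an adjusted p of 0.826. Without any other mouse of these groups, it was between −0.89 and −0.27, with unadjusted P from 0.0659 to 0.582.

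BBR-treated normal mice had lower means than normal mice for all 10 members, with log2 fold changes from −0.85 to −0.03 and a median of −0.21 against −0.02 over all genes, of which 54% were below 0, and after centring on the median Cdhr5 was at 0.0016 instead. None passed the adjusted limit or an unadjusted P of 0.05 in limma with all 12 mice and no block, where 0% and 1.36% of genes did. Krt23 was at −0.85 (SE 0.43, 95% confidence interval −1.80 to 0.10, unadjusted P = 0.0737, adjusted p = 1). It was the 1 member whose groups did not overlap, against 5.46% of genes that were lower without overlap, and its levels in these mice were the lowest of any member. Krt20 was at −0.35 (SE 0.39) and Cdhr5 at −0.03 (SE 0.27). Without the normal mouse numbered 1, Krt23 was at −0.54 (unadjusted P = 0.270), and without the normal mouse numbered 4 it was at −1.10 (unadjusted P = 0.0416). At the same −0.85, its unadjusted P was 0.0229 with the replicate number as a block, 0.0337 with a block for the mice numbered 4 and 0.0366 with both groups fitted alone, and its adjusted p was at least 0.9997 in all 17 alternatives run. It was at −1.01 within the mice numbered 1 to 3 (unadjusted P = 0.0586) and at −0.52 in the single pair numbered 4.

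Whether BBR acted differently with and without colitis was tested by the interaction term, and 0 members passed either limit, where 0% and 2.42% of genes did. The lowest unadjusted P among members was 0.475, for Cdhr2. Krt23 had an interaction of 0.34 in log2 (SE 0.61, 95% confidence interval −1.0 to 1.67), an interval too wide to show that BBR acted alike in both states.

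Filament and adhesion partners of the keratins and of Epcam were then counted in colitis against normal mice. Of 8 desmosome genes, which anchor keratin filaments at cell contacts, 5 were above 0 and 3 below, with a median of 0.06 and with 26.2% of all genes above 0. The desmosomal cadherin Dsc2 was at 0.76 (SE 0.29, unadjusted P = 0.0239, limma adjusted p = 0.176) and the plakophilin Pkp3 at 0.45 (SE 0.19, unadjusted P = 0.0352, adjusted p = 0.201). These were the 2 of the 8 genes that were higher at an unadjusted P of 0.05, where 5.56% of all genes were, and 0 of the 8 passed after adjustment. The largest change of the list was that of the plakin Evpl, at −1.26 (SE 0.69, unadjusted P = 0.0919), and −0.36 without the colitis mouse numbered 2. A second plakin, Ppl, was the 1 gene of the list lower without overlap, at 1.36, 1.41 and 1.34 FPKM against 1.72, 2.3 and 1.76 FPKM (log2 fold change −0.45, unadjusted P = 0.166). Dsc2, Pkp2 and Pkp3, 3 of the 8 genes, were higher without overlap, where 7.1% of all genes were. In BBR-treated colitis mice, Pkp3 was 0.51 lower in log2 than in colitis mice (SE 0.19, unadjusted P = 0.0209, adjusted p = 0.638). Of 9 tested partners of Epcam and epithelial adhesion genes, some of them, such as Cldn7 and Cdh1, also among the general epithelial genes, 5 were above 0 and 4 below, with a median of 0.02 and 0 at an unadjusted P of 0.05.

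Of 4 partner genes of the adhesion complex that Cdhr2 and Cdhr5 form between microvilli, 1 was above 0 and 3 below, a split near that of all genes, of which 26.2% were above 0. Myo7b, the motor that carries the complex to microvillus tips, was at −0.52 (SE 0.20, unadjusted P = 0.0259, limma adjusted p = 0.181). Leaving out each mouse put Myo7b between −0.67 and −0.34. The microvillus core and linker genes, 22 in number, were split into 11 above and 11 below 0, with a median of 0.03, against the same 26.2% of all genes above 0. Among them Cobl, an actin nucleator, was at −1.34 (SE 0.56, unadjusted P = 0.0343, adjusted p = 0.199) and was the 1 gene with an unadjusted P of at most 0.05, where 5.56% of all genes were higher and 15.9% lower at that limit.

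Apical enzymes and transporters lay on both sides of 0. Of 21 genes 10 were above 0 and 11 below, against 26.2% of all genes above 0. At an unadjusted P of 0.05, 3 were higher and 4 lower, against 5.56% and 15.9% of all genes, and 0 passed after adjustment. The higher ones were Slc51b, a bile acid exporter subunit, at 2.06 (SE 0.58, unadjusted P = 0.00429, limma adjusted p = 0.0987), Ggt1, a glutathione-cleaving enzyme, at 2.36, and Alpi, an alkaline phosphatase, at 1.44. The lower ones were the sulfate transporter Slc26a2 at −1.38, the peptidase Anpep at −1.27, the sodium-proton exchanger Slc9a3 at −1.15 and the metalloprotease Mep1a at −1.13. Alpi was at 4.86, 2.42 and 0.78 FPKM in colitis mice and 0.88, 0.76 and 0.56 FPKM in normal mice, which overlapped, and its log2 fold change was 0.86 without the colitis mouse numbered 1 and 2.10 without the one numbered 4. Slc9a3 was at −0.76 without the normal mouse numbered 3, and Mep1a at −0.72 without the colitis mouse numbered 4. In the comparison with BBR on both sides, 13 of the 21 were above 0, against 19.9% of all genes. There the mucin Muc13 was at 1.58 (SE 0.48, unadjusted P = 0.00669, adjusted p = 0.215), Slc51b at 1.74 (SE 0.58, unadjusted P = 0.0119, adjusted p = 0.215) and Slc9a3 at 0.99 (SE 0.42, unadjusted P = 0.0369, adjusted p = 0.243), and Anpep was lower, at −1.14 (SE 0.43, unadjusted P = 0.0226, adjusted p = 0.222). Of 17 alternatives, Muc13 passed the adjusted limit in 3 (lowest adjusted p = 0.0296), Slc51b in 3 (0.0104) and Anpep in 1 (0.0368). Slc9a3 was 1.65 lower in log2 in BBR-treated normal mice than in normal mice (SE 0.42, unadjusted P = 0.00207, adjusted p = 1).

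Of 14 colonocyte transcription factors 4 were above 0 and 10 below in colitis mice, a split near that of all genes, of which 26.2% were above 0, and the median was −0.57 against −0.32. In this list Isx, an intestinal homeobox repressor of vitamin A uptake, rose. Isx was at 3.8, 3.02 and 1.43 FPKM in normal mice and at 56.63, 48.84 and 32.32 FPKM in colitis mice, with no overlap. Its log2 fold change was 4.08 (SE 0.52, limma adjusted p = 0.00894), and without the colitis mouse numbered 1 the adjusted p was 0.0518. The vitamin D receptor Vdr was at −1.55 (unadjusted P = 0.0153, adjusted p = 0.148) and Hnf4a, a nuclear receptor of the intestinal epithelium, at −0.79 (unadjusted P = 0.0189, adjusted p = 0.159). Leaving out each mouse gave −1.82 to −1.03 for Vdr and −0.95 to −0.50 for Hnf4a. With BBR on both sides Isx was at 3.16 (SE 0.52, adjusted p = 0.0719), with adjusted p from 0.0130 to 0.364 over 17 alternatives and below the limit in 4, and in BBR-treated colitis mice it was 1.16 lower in log2 than in colitis mice (SE 0.52, unadjusted P = 0.0474, adjusted p = 0.771). In the fit with all 12 mice and no block, Isx was the 1 gene of these 6 epithelial lists to pass the adjusted limit in colitis against normal mice, but this depended on the fit. Of 17 alternatives, Slc51b passed in 4 (lowest adjusted p = 0.00956), Anpep in 2 (0.0333), Dsc2 in 2 (0.0323), Cobl in 1 (0.0347) and Slc26a2 in 1 (0.0337).

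**Figure D3:**
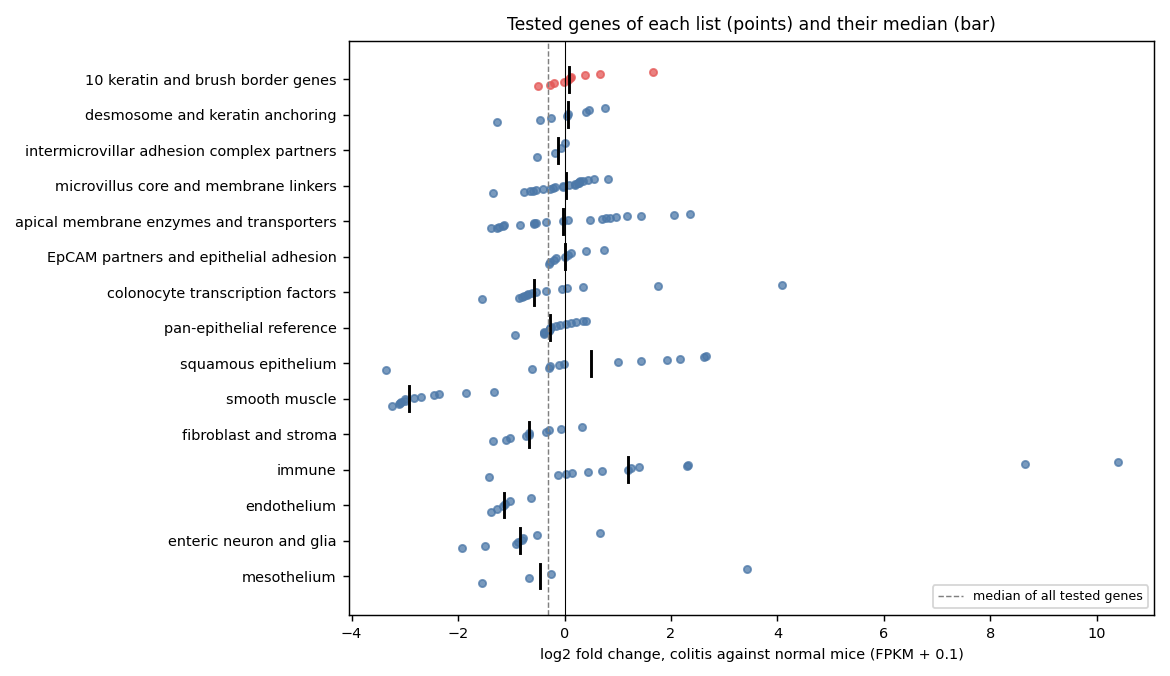
Log2 fold change between colitis and normal mice of every tested gene of the epithelial lists and the marker lists of other cell types (points), with the median of each list as a bar, on the log2(FPKM + 0.1) scale. The 10 members have a median of 0.09 and the 12 smooth muscle genes one of −2.91.

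Across the 12 mice, the genes whose levels most resembled a member were sought among 11943 genes with a mean of at least 1 FPKM, a number that counts the 10 members, which were then left out, by Pearson's r of log2(FPKM + 0.1). The mice fall into 4 groups and those numbered 4 stand apart in each, so r is given as a description. For Krt23 the top 3 genes included Sptlc2, a subunit of the enzyme that starts sphingolipid synthesis, with r = 0.933, and Mapk13 with r = 0.907. For Krt20 they were Clca4a, Sh3kbp1 and Cap1, with r of 0.948 to 0.955. For Cdhr5 the top 3 included Stfa2l1 with r = 0.926 and Slc22a21 with r = 0.918, and for Cdhr2 Apoc2 led with r = 0.931, followed by the carnitine carrier Slc25a20. Homer2 led among these genes for both Krt8 and Krt19, with r = 0.923 in each case, below the 0.967 between Krt8 and Krt19 themselves. S100a10 led for Epcam with r = 0.960, Mrps6 for Vil1 with r = 0.858, and the histone genes H2ac6 and H2ac23 led for Krt18 and Krt7 with r = 0.904 and 0.848.

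**Figure D4:**
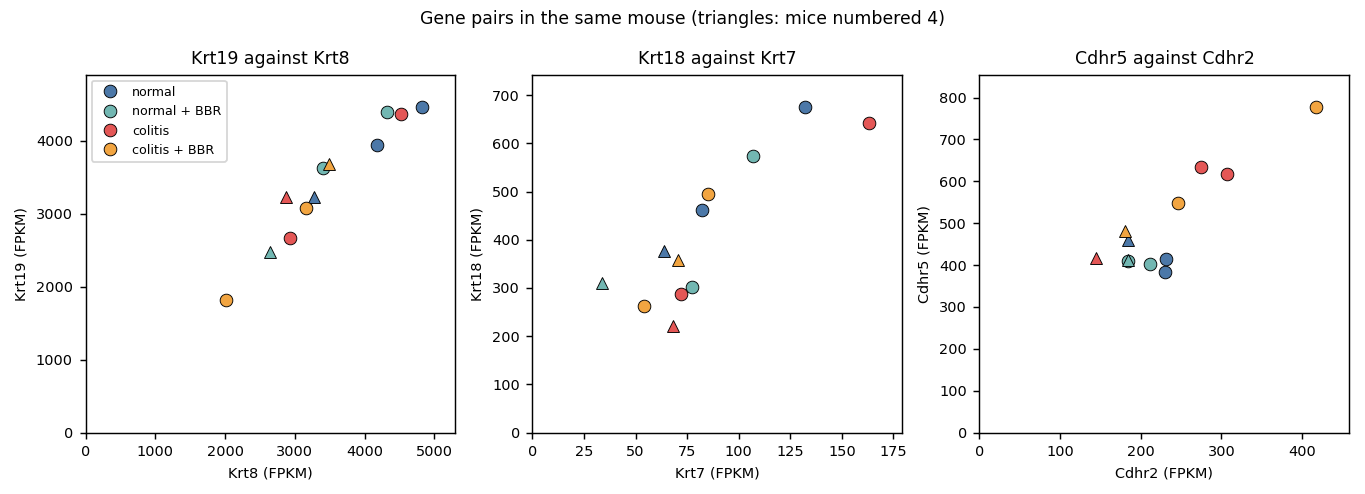
Levels of pairs of members in each of the 12 mice (FPKM, linear axes from 0), coloured by group, with triangles for the mice numbered 4. Krt8 and Krt19 lie close to a line of equal level, with ratios of 0.891 to 1.11, and Krt18 against Krt7 spreads from 3.25 to 9.29.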

How the data were processed

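RNA of 12 mice, 3 per group, was sequenced by the authors, who aligned the reads with Bowtie2 2.2.5 and estimated expression with RSEM 1.2.12 by the submitters' processing notes, with mm9 as build. The deposited table holds 1 value per gene and mouse, read as FPKM from the values, and no read counts. The library kit differs between the labels and the study's methods. Groups came from the sample labels, where nothing says that equal replicate numbers are related animals.

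Genes averaging 0.1 FPKM or more (15315) were put on the log2(FPKM + 0.1) scale, which understates changes of low genes, and tested with limma 3.58.1 (R 4.3.3) over all 12 mice, with 1 mean per group, trended empirical Bayes and Benjamini-Hochberg adjustment over all tested genes (limit 0.05). The study's own limit, an unadjusted P of 0.05, is given beside it. Single genes were checked by an exact two-sided permutation test, which cannot go below 0.1. A second fit subtracted the mean of 16 epithelial genes in each mouse. Alternatives were other pseudocounts, filters, scalings and blocks, and leaving out each mouse. The members and lists were chosen with earlier results of these data known. The named genes are the members, the list genes and, per member, the 3 genes most like it, of which 2 are not reported here. Intervals and approximate reads cover counting or sampling error only. The fit was tested on simulated data. Promoters are from RefSeq (GRCm38.p6), matched by symbol for 9 of 10 members.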

Additional observations from a re-analysis of the deposited data

How the results depend on the processing

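Over the alternatives run, the log2 fold change of Krt23 stayed between 1.39 and 2.08 in colitis against normal mice, with adjusted p from 0.0235 to 0.227, and between 1.62 and 2.45 with BBR on both sides, with adjusted p from 0.0275 to 0.442. The count of members past the adjusted limit went from 0 to 1, each time Krt23, with a block for the mice numbered 4 in both comparisons, and without those 4 mice with BBR on both sides. Leaving out each mouse in turn gave counts of 0 to 1 in both comparisons. The replicate numbers were not taken as pairs. Deviations of same-numbered mice correlated across genes at 0.34 on average, against −0.103 for different numbers, and at 0.497 among those numbered 4. Among the mice numbered 1 to 3, however, the average was 0.205 for the same number (lowest 0.078) and 0.193 for different numbers. With the replicate block, Krt23 was at 1.39 (adjusted p = 0.0510) on the FPKM scale, and relative to the epithelial genes 1 member passed, Krt23 at 1.45 (adjusted p = 0.0453). The block turned Krt19 to 0.0713, Vil1 to 0.0462 and Cdhr2 to −0.13, and it raised the count of all genes from 165 to 734. Centring on the median turned Krt8 to 0.0735, Krt19 to 0.14 and Vil1 to 0.34. Quantile normalization put Ppl at 0.0006. Without the mice numbered 4 Vil1 was at 0.0066. Leaving out each mouse gave −0.15 to 0.14 for Vil1, −0.33 to 0.36 for Krt7 and −0.10 to 0.44 for Cdhr2 in colitis against normal mice. Krt18 then ran from −0.95 to −0.18, Krt8 from −0.48 to −0.14 and Krt19 from −0.39 to −0.03. The interaction of Krt23 ran from −0.079 to 0.588 over the mice left out, being −0.079 without the colitis mouse numbered 4 and −0.0417 without the colitis mouse receiving BBR numbered 2. Leaving out each mouse gave −0.134 to 0.476 for Cdhr2 between both colitis groups, and −0.0973 to 0.0355 for Cdhr5 between both normal groups, where it was 0.0016 after centring and 0.0265 without the mice numbered 4. The cause of these moves was not tested.

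Of all genes in colitis against normal mice, 165 passed the adjusted limit, against 91 with a pseudocount of 0.01, 71 with a minimum mean of 1, 258 after quantile normalization, 488 with the compared groups alone, 1412 with a block for the mice numbered 4 and 804 without them, and between 11 and 211 when each mouse was left out. With BBR on both sides, 6 passed, against 3 after centring, 2 without a filter, 0 with the compared groups alone, 12 without a trend, 268 with the block for the mice numbered 4 and 2302 without them. Leaving out the colitis mouse receiving BBR numbered 4 gave 2255. Of the genes with an unadjusted P of at most 0.05 in colitis against normal mice, 26% were higher as deposited, 49.5% after quantile normalization and 53.7% after centring. The table gives no read counts, so the depth behind Krt23 is known only as an estimate.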
